A study of Caenorhabditis elegans with 4 samples.

Results

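The genes examined were 37 named genes of the endoplasmic reticulum (ER) and the early secretory pathway, in starved and refed *Caenorhabditis elegans*: the sensors of ER stress, the chaperones and oxidoreductases that fold secreted proteins, the machinery that removes misfolded ones, and the COPII and COPI vesicle coats. They were picked as a list of gene names, with earlier results of these data known, and 36 of the 37 matched a row of the deposited table of 13758 genes. The gene given as sec-13 had no entry under that name in the WBcel235 annotation.

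Proteins bound for secretion, for membranes or for lysosomes enter the ER through a protein channel, are folded there by chaperones and enzymes that form disulfide bonds, and leave in COPII-coated vesicles, while COPI-coated vesicles return material from the Golgi. When unfolded proteins build up in the lumen, the sensors IRE-1, PEK-1 and ATF-6 start the unfolded protein response: IRE-1 splices the mRNA of xbp-1, PEK-1 slows translation, and the induced genes include chaperones such as hsp-4. In worms this machinery carries the heavy load of yolk proteins made in the intestine and of collagens made in the epidermis, and the lipid makeup of the ER membrane is itself known to act on the sensors.

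The mutants were of strain GG14, genotype fasn-1(g14), with a mutation in the worm's fatty acid synthase gene. They were compared with wild-type N2 (Bristol), with 2 biological replicates per group, numbered 3 and 4 in each. Both groups shared the same history. They hatched without food and were held as arrested larvae for 8 days at 20 °C, then fed on HT115 bacteria whose vector had no insert, on plates made with IPTG at 1 mM and carbenicillin at 25 µg/ml, and were collected as early adults after about 68 hours, when eggs appeared. The mutant was 1 strain set against 1 other, so the allele and any other difference between the strains cannot be told apart. RNA came from whole animals, in which fewer cells of a type and less RNA per cell cannot be told apart, and eggs had appeared when the animals were collected, so RNA of embryos can be included.

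Levels are given in normalized CPM, read counts scaled to library size, and a change is the difference of log2(CPM + 1), mutant minus wild type. The libraries held between 13960509 and 15889424 reads. The transcript of fasn-1 itself stood at 353 and 285 CPM in the mutant and at 369 and 410 CPM in wild type, a change of -0.29 (SE 0.11) that missed the threshold (limma, adjusted p = 0.1196). The labels' genotype therefore has no check in this transcript. Marker genes of several tissues differed between the groups. Of 5 pharynx markers 3 were lower in the mutant, with summed levels of 301 and 140 CPM in the mutant against 1004 and 1075 CPM in wild type. Of 6 neuron markers 3 were lower, with sums of 311 and 278 CPM in the mutant against 380 and 399 CPM in wild type. Of 8 intestine markers 2 were higher, with sums of 2322 and 2415 CPM in the mutant against 2352 and 2184 CPM in wild type. Of 6 germline and oocyte markers 0 passed, with sums of 3513 and 4374 CPM in the mutant against 3502 and 3301 CPM in wild type. All 6 germline and oocyte estimates were above 0, with a median change of 0.21. Of the intestine estimates 5 were above 0 and 3 below, and all 5 pharynx and all 6 neuron estimates were below 0. Over all genes tested 4.41% were higher and 10.7% lower at an adjusted p below 0.05 (limma). Epidermis markers summed to 918 and 1015 CPM in the mutant against 619 and 559 CPM in wild type, with 1 of 5 higher and 1 lower. Of these 5 markers only 1 had an estimate above 0 and 4 were below, with a median change of -0.13. Of 5 body wall muscle markers 1 was lower, of 3 coelomocyte markers 1 was lower, and of 3 tested embryo markers 0 passed. Coelomocyte markers summed to only 5.34 and 4.21 CPM in the mutant against 7.60 and 9.11 CPM in wild type. The 5 embryo markers with a row, of 6 listed, summed to 8.11 and 4.53 CPM in the mutant against 6.09 and 4.92 CPM in wild type. At such levels they are a weak check of embryo RNA. No tested marker was at 0. The part of these shifts in the results on the ER genes was not tested.

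In the authors' scaling, the ER and secretion genes as a group stayed close to their wild-type level in the fasn-1 mutant. Of the 36 measured genes 1 was higher, sel-1, and 0 were lower (limma, Benjamini-Hochberg adjusted p below 0.05 over 12977 genes). Over all genes tested 4.41% were higher and 10.7% were lower by the same rule. At an unadjusted p below 0.05, 6 of the 36 were higher and 0 lower, against 12.3% higher and 20.6% lower over all genes tested. By edgeR 0 of the 36 passed in either direction, with 6 at an unadjusted p below 0.05. Of the 12977 genes tested, 439 were higher and 913 were lower by edgeR. By DESeq2 507 of all genes tested were higher and 1057 were lower, and of the 36 sel-1 alone passed. The changes ran from -0.25 for dnj-27 to 0.30 for pek-1, with a median of 0.05 beside 0.0019 for all genes tested. With each library rescaled to the same total these medians were -0.05 and -0.09, and 13 of the 36 changes turned in sign, none of them called. When centred on the median the medians were 0.17 for the 36 and 0.12 for all genes tested. In that fit 33 of the 36 changes were above 0 and 3 below, against 8044 and 4933 over all genes tested. With the test limited to genes with a mean of at least 5 CPM the medians were 0.050 for the 36 and 0.052 for all genes tested. The median size of a change regardless of sign was 0.085 in these genes and 0.23 over all genes tested.

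For 36 of the 36 genes the 95% interval of the change lay within 1.5-fold in either direction, a limit chosen after the values were seen, whereas this held for 43.8% of all genes tested. The outermost ends of the intervals were -0.56 and 0.56. This count depended on the scaling: it was 35 with each library rescaled to the same total, where dnj-27 lay outside, and 25 when centred on the median, where 31.6% of all genes tested lay within the limit. It was 34 in the fit without a trend and between 33 and 36 with 1 library left out. These genes are well expressed, with a median of 204 CPM in the mutant and 177 CPM in wild type, beside 17.3 CPM in the mutant and 18.8 CPM in wild type over all genes tested. The standard errors were smaller, with a median of 0.080 against 0.18, and the lowest count of any of the 36 in any library was 331 reads. With the test limited to a mean of at least 5 CPM, 61.2% of all genes tested had an interval within 1.5-fold. With a pseudocount of 5 CPM 72.2% did, and in both fits all 36 of these genes did. For 25 of the 36 the change was smaller than the larger of the gaps between replicates of a group, against 49.2% of all genes tested.

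**Figure D1:**
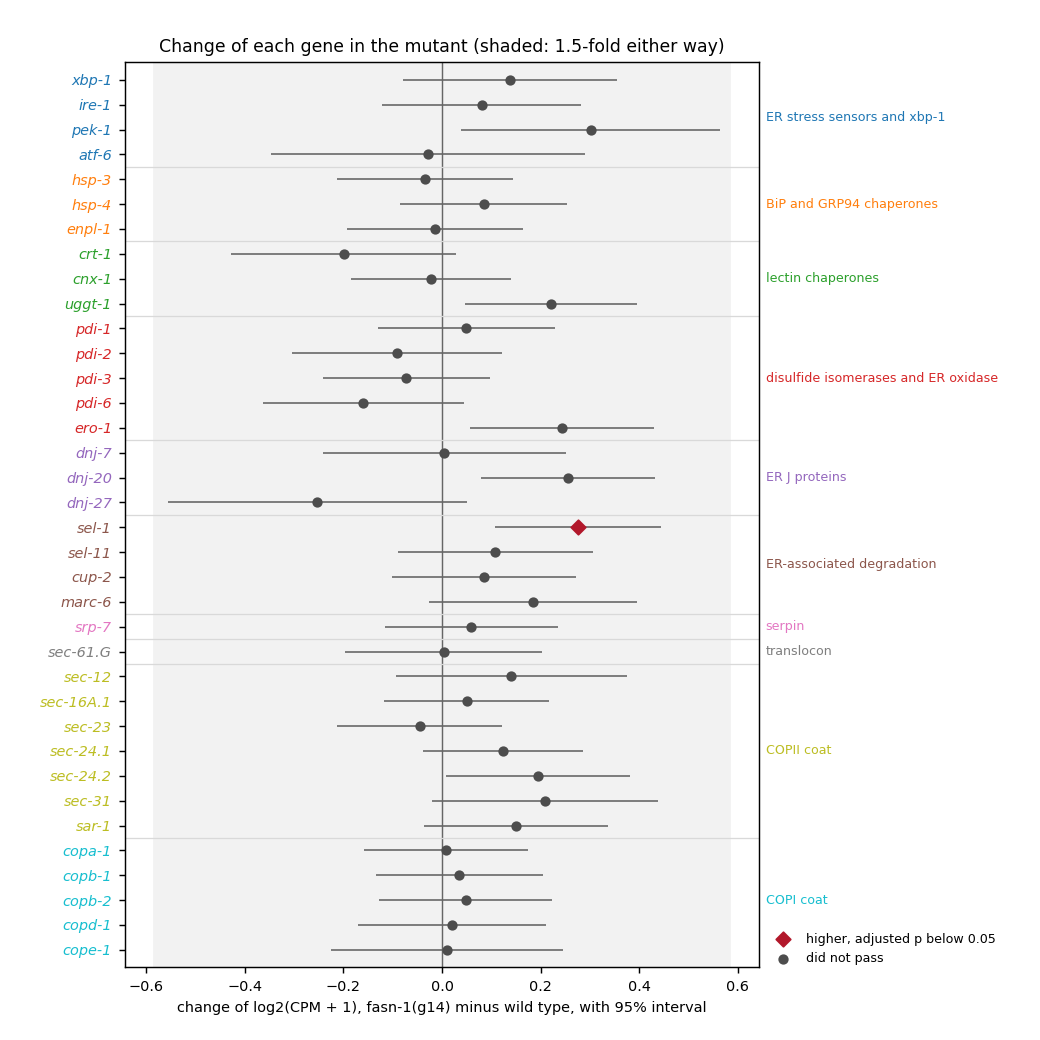
Change of log2(CPM + 1) of each of the 36 genes, fasn-1(g14) minus wild type, on the horizontal axis, with genes in rows by role; points are the estimates of the limma fit over 2 libraries per group and lines their 95% intervals. Only sel-1 (red diamond) passed at an adjusted p below 0.05, and the 36 intervals stay inside the shaded band of 1.5-fold either way, a limit chosen after the values were seen; when centred on the median 25 did.

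The libraries of a group were not equally tight. Both mutant libraries lay above both wild-type libraries for 15 of the 36 genes and below them for 5, and for 16 the groups overlapped. Over all genes tested, the mutant lay above without overlap for 31.2% and below for 32.9%. These overlap counts were taken in the authors' scaling only. In that scaling 26 of the 36 estimates were above 0 and 10 below, against 6528 and 6449 over all genes tested. With each library rescaled to the same total, 13 of the 36 were above 0 and 23 below, against 4822 and 8155. Among all genes with a mean of at least 5 CPM, 5366 were above 0 and 3800 below. The gap between the mutant replicates was larger than that between the wild-type replicates for 25 of the 36, with a median gap of 0.114 in the mutant and 0.044 in wild type on the log2(CPM + 1) scale. Against the wild-type mean, the 36 genes had a median of 0.03 in mutant replicate 3, against 0.08 for mutant replicate 4. Both mutant libraries stood within 0.1 of the wild-type mean for 13 genes, and at least 1 of them stood more than 0.3 away for 5 genes. The replicate gaps and these distances were not computed over all genes tested, so they cannot be read as particular to these genes.

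**Figure D2:**
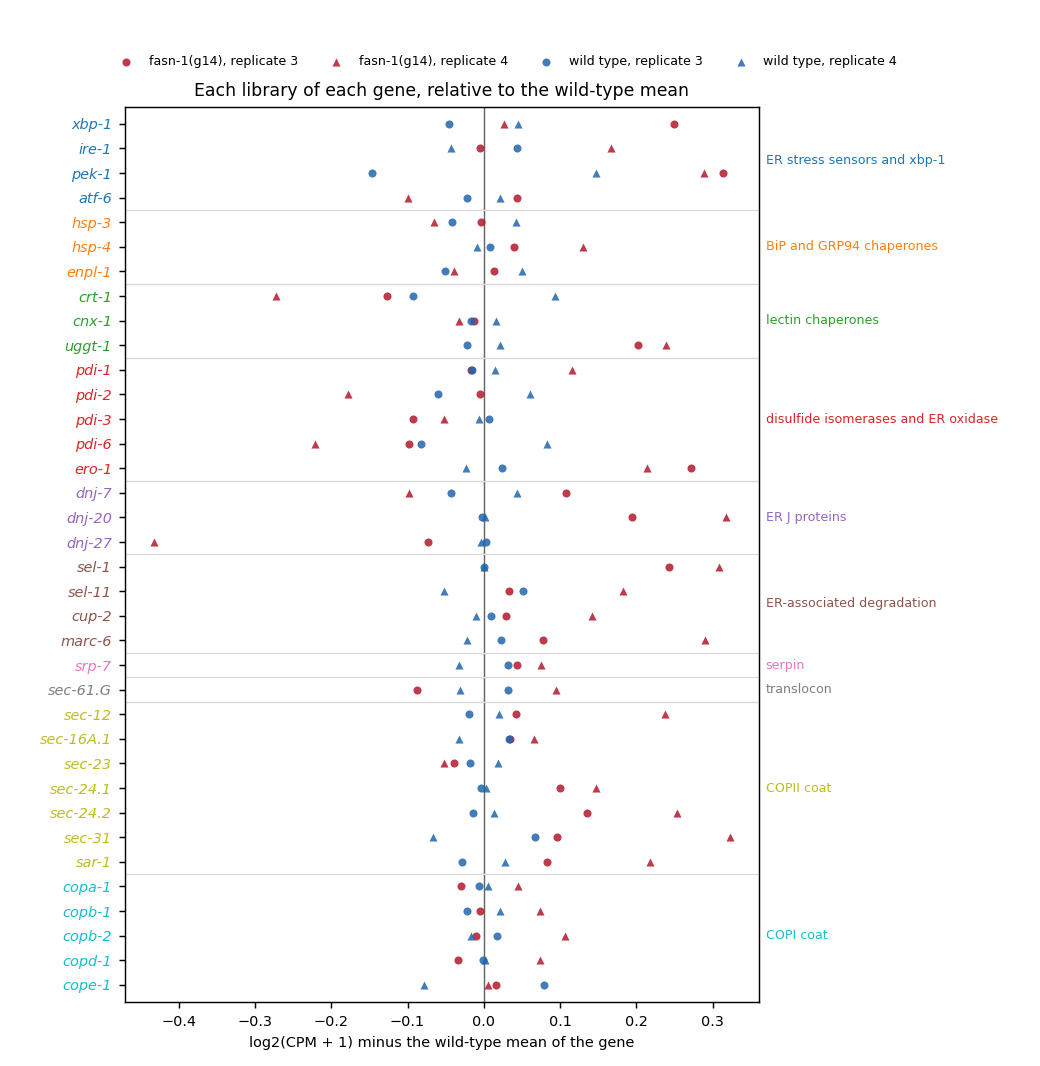
Level of each of the 36 genes in each of the 4 libraries, as log2(CPM + 1) minus the wild-type mean of that gene (horizontal axis), with genes in rows by role; red marks the 2 mutant and blue the 2 wild-type libraries, circles replicate 3 and triangles replicate 4. For these 36 genes the mutant libraries are often further from each other than the wild-type libraries, with a median gap of 0.114 against 0.044. These gaps were not computed over all genes tested. The point furthest to the left is dnj-27 in mutant replicate 4.

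The transcripts of the stress sensors were within the spread of the replicates or close to it. Transcripts of xbp-1 (R74.3; WBcel235 chromosome III, 4193809 to 4195358, plus strand), the transcription factor activated by IRE-1, were measured at 319 and 273 CPM in the mutant against 260 and 276 CPM in wild type. Mutant replicate 3 was the highest of the 4 libraries and mutant replicate 4 fell between the wild-type libraries. With a change of 0.14 (SE 0.09, 95% interval -0.08 to 0.35), the gene was not called (limma, adjusted p = 0.342). Counts per gene do not separate the spliced from the unspliced xbp-1 mRNA, so the splicing step was not measured here.

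The kinase and endonuclease gene ire-1 (C41C4.4; chromosome II, 8112243 to 8124910, minus strand) was at 176 and 198 CPM in the mutant and at 182 and 171 CPM in wild type, with overlapping groups (change 0.08, SE 0.09; limma, adjusted p = 0.558). The gene for the membrane-tethered factor atf-6 (F45E6.2; chromosome X, 12480948 to 12484904, plus strand) was the least abundant of the 36, at 23.8 and 21.4 CPM in the mutant and 22.7 and 23.4 CPM in wild type (change -0.03, SE 0.14). The eIF2-alpha kinase gene pek-1 (F46C3.1; chromosome X, 11410176 to 11414887, minus strand) had the largest positive change of the 36. It was measured at 84.1 and 82.7 CPM in the mutant against 60.9 and 74.8 CPM in wild type, where the replicates differed by more than the mutant replicates did. Its groups did not overlap, but its change of 0.30 (SE 0.11, 95% interval 0.04 to 0.56) missed the adjusted threshold (limma, adjusted p = 0.110).

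The genes for the luminal Hsp70 chaperone BiP, of which worms have a pair, gave no call. Transcripts of hsp-3 (C15H9.6; chromosome X, 6089028 to 6092124, minus strand), the constitutive form, stood at 698 and 669 CPM in the mutant and at 680 and 721 CPM in wild type. The mutant values lay across the lower wild-type value (change -0.03, SE 0.08, 95% interval -0.21 to 0.14; limma, adjusted p = 0.788). The stress-inducible form hsp-4 (F43E2.8; chromosome II, 7350112 to 7352645, minus strand), whose promoter is widely used as a reporter of the unfolded protein response, stood at 345 and 367 CPM in the mutant and at 337 and 333 CPM in wild type. Both mutant libraries were the higher ones, by a mean of 6.13%, and the interval of the change of 0.08 (SE 0.07) ran from -0.08 to 0.25 (limma, adjusted p = 0.457). Per kb of exon, the ratio of hsp-4 to hsp-3 was 0.590 and 0.655 in the mutant libraries and 0.592 and 0.552 in the wild-type libraries, so the ranges overlapped. The genes are close copies, and reads that match both may have been counted to either gene or dropped in the authors' counting. The ER Hsp90 gene enpl-1 (GRP94) was at 597 and 576 CPM in the mutant and 571 and 613 CPM in wild type, with a change of -0.01 (SE 0.08).

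The lectin chaperones, which hold glycoproteins until they are folded, went in different directions and none passed. The luminal calreticulin gene crt-1 (Y38A10A.5; chromosome V, 6098992 to 6100542, minus strand) was the most abundant of the 36, at 1033 and 934 CPM in the mutant and 1057 and 1203 CPM in wild type. Both mutant libraries were below both wild-type libraries, but by little in replicate 3, and the change of -0.20 (SE 0.10) was not called (limma, adjusted p = 0.201). Its membrane-bound relative, the calnexin gene cnx-1, was at 257 and 254 CPM in the mutant and at 257 and 263 CPM in wild type (change -0.02, SE 0.07). The gene for the folding sensor UDP-glucose:glycoprotein glucosyltransferase, uggt-1, was at 139.9 and 143 CPM in the mutant and at 119.6 and 123 CPM in wild type. For uggt-1 the replicates of each group were close and the groups were apart, with a change of 0.22 (SE 0.07, 95% interval 0.05 to 0.39) and an adjusted p of 0.0859 (limma), which is not a call.

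Among the enzymes of disulfide bond formation none passed. The oxidase gene ero-1, whose product passes oxidizing equivalents to the isomerases, was at 107 and 102 CPM in the mutant and at 89.7 and 86.7 CPM in wild type (change 0.24, SE 0.08, 95% interval 0.06 to 0.43; limma, adjusted p = 0.0800). Both mutant libraries were higher, by a mean of 18.6%. Of the 4 protein disulfide isomerase genes, pdi-1 was at 374 and 410 CPM in the mutant against 374 and 382 CPM in wild type, and pdi-3, related to mammalian ERp57, was at 669 and 688 CPM in the mutant against 716 and 710 CPM in wild type. The gene pdi-2, whose product is also a subunit of the collagen prolyl 4-hydroxylase, was at 809 and 718 CPM in the mutant and at 779 and 847 CPM in wild type, with overlapping groups. The changes of pdi-1, pdi-2, pdi-3 and pdi-6 were 0.05, -0.09, -0.07 and -0.16 (SE 0.08, 0.09, 0.07 and 0.09), and none passed (limma, adjusted p = 0.694, 0.523, 0.531 and 0.245). Of these, pdi-6 was at 232 and 213 CPM in the mutant and at 234 and 263 CPM in wild type, so its groups did not overlap but were nearly level in replicate 3.

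The J proteins of the ER, which set the ATPase cycle of BiP, also split. The gene dnj-20, homologous to mammalian DNAJB11, was at 329 and 358 CPM in the mutant and at 287 and 288 CPM in wild type. The wild-type libraries were almost level and both mutant libraries stood above them, and the change of 0.26 (SE 0.08, 95% interval 0.08 to 0.43) fell short of the threshold (limma, adjusted p = 0.0600). The gene dnj-27, homologous to the reductase ERdj5, was at 58.1 and 45.1 CPM in the mutant and at 61.3 and 61.05 CPM in wild type. It had the lowest change of the 36, -0.25 (SE 0.13, 95% interval -0.56 to 0.05; limma, adjusted p = 0.219), and mutant replicate 4 was the library that stood apart. The third, dnj-7, homologous to mammalian DNAJC3, was at 64.1 and 55.4 CPM in the mutant and at 57.6 and 61.3 CPM in wild type (change 0.0045, SE 0.11).

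In ER-associated degradation, which draws misfolded proteins back to the cytosol for the proteasome, sel-1 was the gene that passed. It encodes the partner of the ubiquitin ligase SEL-11 (SEL1L and HRD1 in mammals) and lies on chromosome V, 12560732 to 12563383, plus strand (F45D3.5). It was measured at 207 and 217 CPM in the mutant against 175.04 and 174.98 CPM in wild type. Both mutant libraries were higher, by a mean of 21.2% (1.21-fold, change 0.28, SE 0.07, 95% interval 0.11 to 0.44; limma, adjusted p = 0.0434). The wild-type libraries were nearly identical, with an SD of 0.0412 CPM, against 6.83 CPM in the mutant (n = 2 each). Leaving out mutant replicate 3 or 4 gave adjusted p-values of 8.26e-04 and 0.0189, and leaving out wild type replicate 3 or 4 gave 0.290 and 0.355, so the call was lost without either wild-type library (limma). It was 0.0545 by edgeR on the recovered reads, 0.0434 by DESeq2, and between 0.0586 and 0.175 under the stricter filter, the other scalings, the fit without a trend and the replicate block.

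The ligase gene sel-11 itself was at 169 and 187 CPM in the mutant and at 171 and 159 CPM in wild type, with overlapping groups (change 0.11, SE 0.08; limma, adjusted p = 0.418). The derlin gene cup-2 had 118.8 and 129 CPM in the mutant and 117 and 116 CPM in wild type, a change of 0.09 (SE 0.08). The gene of the other membrane ligase, marc-6 (MARCH6 in mammals), had 171 and 198 CPM in the mutant and 164 and 159 CPM in wild type, a change of 0.18 (SE 0.09) carried mostly by mutant replicate 4 (limma, adjusted p = 0.201). All 4 estimates of this group were above 0, with a median of 0.15, when the authors' scaling was kept. With each library rescaled to the same total 3 of 4 were above 0, with a median of 0.05, and centred on the median all 4 were, with a median of 0.26. The group's median was 0.24 without mutant replicate 3 and 0.06 without mutant replicate 4.

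The gamma subunit of the translocation channel, sec-61.G, was at 209 and 238 CPM in the mutant and 227 and 218 CPM in wild type, the mutant libraries lying on either side of wild type (change 0.0032, SE 0.09). The gene srp-7, which belongs to the serpin family of protease inhibitors and not to the signal recognition particle, was at 135 and 138 CPM in the mutant and 134 and 128 CPM in wild type (change 0.06, SE 0.08).

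The COPII genes, for the coat that buds from the ER, gave no call, with mutant libraries mostly above wild type. Of 7 measured, 6 had both mutant libraries above both wild-type libraries and 1, sec-23, had both below, where over all genes tested 31.2% lay above and 32.9% below. The median change was 0.14, with 6 estimates above 0 and 1 below. It was 0.04, with 5 above 0 and 2 below, when each library was rescaled to the same total, and 0.26, with 7 above 0, when centred on the median. Without mutant replicate 3 it was 0.22 and without mutant replicate 4 it was 0.08. The outer-coat gene sec-31 was at 173 and 203 CPM in the mutant and at 170 and 155 CPM in wild type (change 0.21, SE 0.10; limma, adjusted p = 0.184). The cargo adaptor gene sec-24.2 was at 130 and 142 CPM in the mutant and at 117 and 120 CPM in wild type (change 0.19, SE 0.08; limma, adjusted p = 0.140). Its paralog sec-24.1 was at 280 and 289 CPM in the mutant and at 261 and 262 CPM in wild type (change 0.12, SE 0.07). Per kb of exon, sec-24.1 was 2.06 and 1.96 times as abundant as sec-24.2 in the mutant libraries and 2.12 and 2.09 times in the wild-type libraries.

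The GTPase gene sar-1, which starts coat assembly, was at 187 and 206 CPM in the mutant and 173 and 180 CPM in wild type (change 0.15, SE 0.08; limma, adjusted p = 0.234). Its exchange factor gene sec-12 was at 63.9 and 73.3 CPM in the mutant and 61.1 and 62.9 CPM in wild type, and the scaffold gene sec-16A.1 was at 218.5 and 223 CPM in the mutant and 218.3 and 208 CPM in wild type. The inner-coat gene sec-23 was at 164 and 163 CPM in the mutant and 167 and 171 CPM in wild type (change -0.05, SE 0.07). The gene npp-20, known as the worm homolog of Sec13 and looked up after sec-13 was found to have no entry, was at 59.3 and 60.5 CPM in the mutant and at 64.3 and 59.7 CPM in wild type (change -0.05, SE 0.09; limma, adjusted p = 0.762).

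The COPI genes, for the coat of the return path from the Golgi, gave no call. All 5 had overlapping groups, and their changes lay between 0.0074 for copa-1 and 0.05 for copb-2 (SE 0.07 and 0.08). The largest subunit gene, copa-1, was at 348 and 366 CPM in the mutant and at 354 and 357 CPM in wild type. The epsilon subunit gene cope-1 was at 53.4 and 53.0 CPM in the mutant and at 55.8 and 49.9 CPM in wild type. Summed over the 5 genes, the level was 1061 and 1128 CPM in the mutant and 1075 and 1072 CPM in wild type. The 95% intervals of the changes of copa-1, copb-1, copb-2, copd-1 and cope-1 reached at most 0.17, 0.20, 0.22, 0.21 and 0.25 above 0. The sign of these changes turned for all 5 when each library was rescaled to the same total, which moved the median of all genes tested to -0.09.

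The library kit does not keep the strand of the RNA. In the annotation 10 of the 36 genes (ire-1, enpl-1, crt-1, cnx-1, cup-2, sec-23, sec-24.2, copb-2, copd-1 and cope-1) share exon bases with a gene on the other strand. The genes marc-6 and pdi-2 share exon bases with a gene on their own strand. Reads from shared bases may have been counted to either gene or dropped, as the authors' counting rule is not given in the sources used here.

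Summed over all 36 genes, the level was 9603 and 9641 CPM in the mutant and 9378 and 9688 CPM in wild type. That was 0.970% and 0.937% of the signal in the mutant libraries and 0.994% and 1.029% in the wild-type libraries.

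The count of calls rested on which libraries were used. Without mutant replicate 3, 10 of the 36 were higher (pek-1, uggt-1, ero-1, dnj-20, sel-1, marc-6, sec-12, sec-24.2, sec-31 and sar-1) and 4 were lower (crt-1, pdi-2, pdi-6 and dnj-27), in a fit where 2346 of all genes were higher and 3268 lower, so that 38.9% of the 36 were called against 43.3% of all genes. Without mutant replicate 4, 5 were higher (xbp-1, pek-1, ero-1, dnj-20 and sel-1) and 0 lower, in a fit where 996 of all genes were higher and 1811 lower, so that 13.9% of the 36 were called against 21.6% of all genes. Without wild type replicate 3 the median change of the 36 was 0.09, and without wild type replicate 4 it was 0.04. Each such fit takes its spread from the group that still has both libraries and applies it to the lone library.

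The order of the genes by level was nearly the same in both groups. Per kb of exon, crt-1 was highest, with 702 CPM per kb in the mutant and 807 CPM per kb in wild type, followed by sec-61.G (511 in the mutant and 509 in wild type), pdi-2 (402 in the mutant and 428 in wild type) and pdi-3 (398 in the mutant and 418 in wild type). The luminal chaperone hsp-3 had rank 5 in both groups, with 256 CPM per kb in the mutant and 263 CPM per kb in wild type. At the low end were atf-6, with 9.41 CPM per kb in the mutant and 9.59 in wild type, and pek-1, with 22.5 CPM per kb in the mutant and 18.3 in wild type. Of the 3 sensors ire-1 was the most abundant, at 55.0 CPM per kb in the mutant and 51.9 in wild type. The largest shifts in rank were those of sel-1, at rank 16 in the mutant and rank 20 in wild type, and of pdi-6 and ero-1. The median over the 36 genes was 79.6 CPM per kb over the 4 libraries, against 12.9 over all genes tested, and the lowest of the 36 stood above 44.7% of the genes tested.

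**Figure D3:**
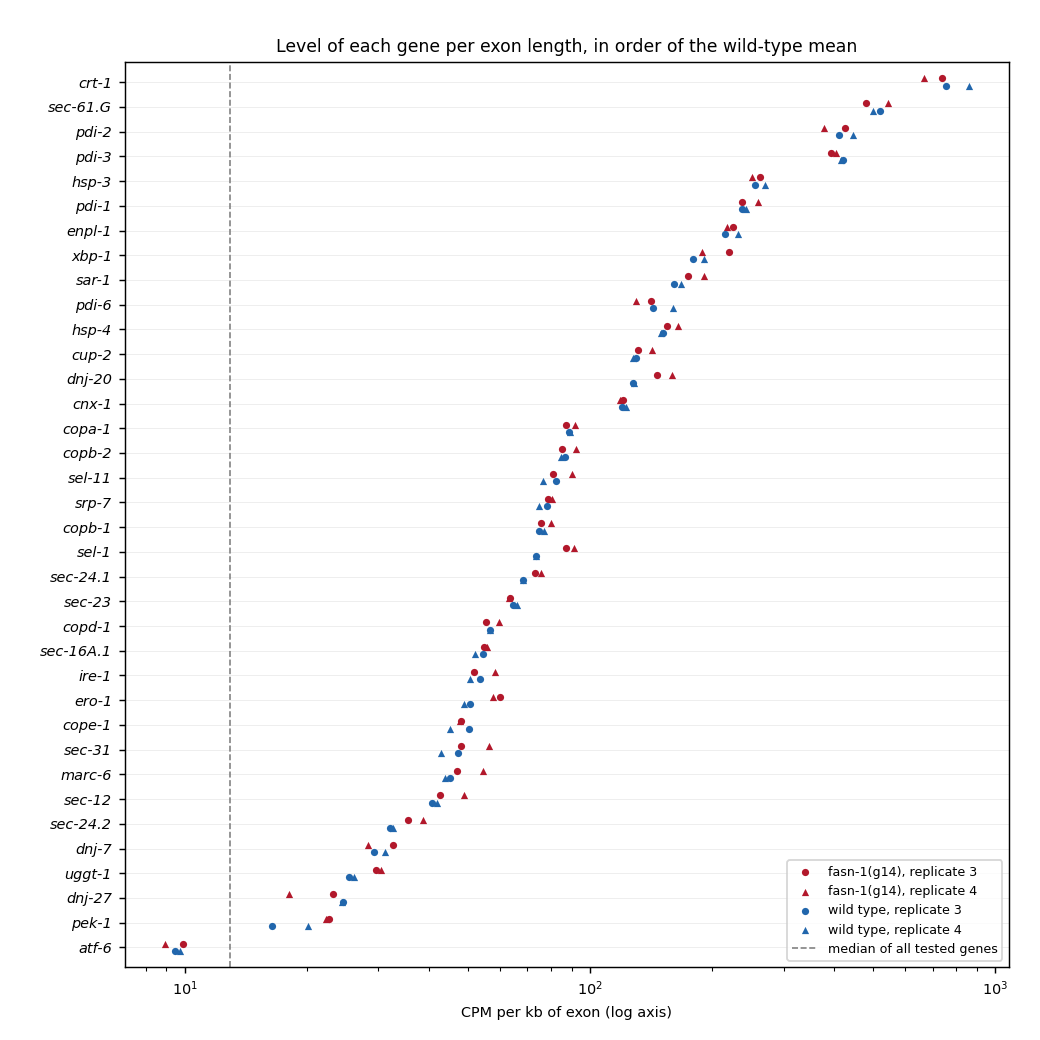
Level of each of the 36 genes per kb of exon (log axis), in rows in the order of the wild-type mean, with red for the mutant and blue for the wild-type libraries, circles for replicate 3 and triangles for replicate 4; the dashed line is the median of all genes tested, 12.9 CPM per kb. The order runs from crt-1 at the top to atf-6 at the bottom, and the points of a gene lie close together compared with the distance between genes.

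Other genes of the pathway were taken from lists of related steps. Of 121 listed, 109 had a row in the table and 108 were tested; 2 were higher and 3 were lower, and 103 did not pass (limma). Over all genes tested 4.41% were higher and 10.7% lower. The median change of the 108 was 0.08 beside 0.0019 for all genes tested, with 79 estimates above 0 and 29 below. It was -0.01 beside -0.09 with each library rescaled to the same total, with 50 above 0 and 58 below, and 0.20 beside 0.12 when centred on the median. Among genes with a mean of at least 5 CPM it was 0.089 beside 0.052, with 79 above 0 and 27 below. Of all genes tested under that filter 5366 were above 0 and 3800 below. Without mutant replicate 3 it was 0.15 and without mutant replicate 4 it was 0.02. Those that rose were trap-1, for a subunit of the translocon-associated protein complex, and hrdl-1, for a ligase related to SEL-11. Levels of trap-1 were 466 and 595 CPM in the mutant and 394 and 386 CPM in wild type (1.36-fold, change 0.43, SE 0.11; limma, adjusted p = 0.0457). Levels of hrdl-1 were 194 and 214 CPM in the mutant and 158 and 153 CPM in wild type (1.32-fold, change 0.39, SE 0.08; limma, adjusted p = 0.0242). The call of trap-1 was lost with a pseudocount of 0.5 CPM, a mean of at least 5 CPM, or each library rescaled to the same total. Both calls were lost in the fit without a trend. Neither passed without wild type replicate 3 (limma, adjusted p = 0.160 and 0.114) or 4 (0.236 and 0.204), and trap-1 missed the threshold by edgeR (adjusted p = 0.0577).

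The genes that fell were all in the list of other stress response and folding genes, 3 of 15 tested, against 10.7% lower over all genes tested. The thioredoxin-domain gene txdc-12.2 fell to 24.3 and 20.9 CPM in the mutant, against 36.2 and 49.9 CPM in wild type (change -0.89, SE 0.17; limma, adjusted p = 0.0218). The genes fkb-7 and fkb-3, of the FK506-binding family of peptidyl-prolyl isomerases, were at 10.1 and 6.09 CPM and at 22.9 and 18.1 CPM in the mutant, against 15.5 and 17.4 CPM and 29.1 and 34.9 CPM in wild type (changes -0.97 and -0.62, SE 0.25 and 0.16; limma, adjusted p = 0.0411 and 0.0449). The related gene txdc-12.1 had a change of -0.87 (SE 0.24) just short of the threshold (limma, adjusted p = 0.0527). Without wild type replicate 4, txdc-12.2, fkb-7 and fkb-3 did not pass (limma, adjusted p = 0.148, 0.240 and 0.351). Without wild type replicate 3, fkb-7 and fkb-3 did not pass (limma, adjusted p = 0.1202 and 0.0963) and txdc-12.2 did (0.0160). By edgeR, txdc-12.2 passed and fkb-7 and fkb-3 did not. These genes are expressed far below the major chaperones, and in each of them mutant replicate 4 was the lowest library.

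In the remaining lists 0 genes passed: 0 of 17 in N-glycosylation, 0 of 18 among the other COPII and cargo receptor genes, 0 of 3 in the other COPI genes, 0 of 18 Golgi tethers and SNAREs, 0 of 8 exocyst subunits and 0 of 3 collagen hydroxylases (limma). At an unadjusted p below 0.05 these lists held 3, 1, 0, 1, 3 and 0 genes, all of them higher in the mutant, against 12.3% higher and 20.6% lower over all genes tested. The channel subunit gene sec-61.A was at 979.9 and 1214 CPM in the mutant and at 905 and 876 CPM in wild type (change 0.29, SE 0.11; limma, adjusted p = 0.115). The cargo receptor gene sft-4, homologous to mammalian SURF4, was at 129 and 140 CPM in the mutant and 110 and 113 CPM in wild type (change 0.27, SE 0.08; limma, adjusted p = 0.0631). The prolyl 4-hydroxylase gene dpy-18, the partner of pdi-2 in collagen modification, was at 52.8 and 35.2 CPM in the mutant and at 51.2 and 69.4 CPM in wild type, with overlapping groups (change -0.46, SE 0.21; limma, adjusted p = 0.171). The exocyst gene exoc-8 was at 134 and 137 CPM in the mutant and at 121.7 and 109 CPM in wild type (change 0.23, SE 0.08; limma, adjusted p = 0.101). In N-glycosylation, algn-14, of the enzymes that build the lipid-linked sugar, was at 32.4 and 31.6 CPM in the mutant and at 25.8 and 23.7 CPM in wild type (change 0.36, SE 0.12; limma, adjusted p = 0.0872). In degradation, where hrdl-1 had passed, the next genes by p were ubxn-4, for a UBX-domain protein, and ubc-6, for a ubiquitin-conjugating enzyme of the ER. Levels of ubxn-4 were 177 and 182 CPM in the mutant and 153 and 156 CPM in wild type (change 0.22, SE 0.07; limma, adjusted p = 0.0817), and those of ubc-6 were 83.2 and 92.3 CPM in the mutant and 73.5 and 72.4 CPM in wild type (change 0.26, SE 0.09; limma, adjusted p = 0.0896). Both mutant libraries lay above wild type for algn-14, ubxn-4 and ubc-6, none of which was called.

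**Figure D4:**
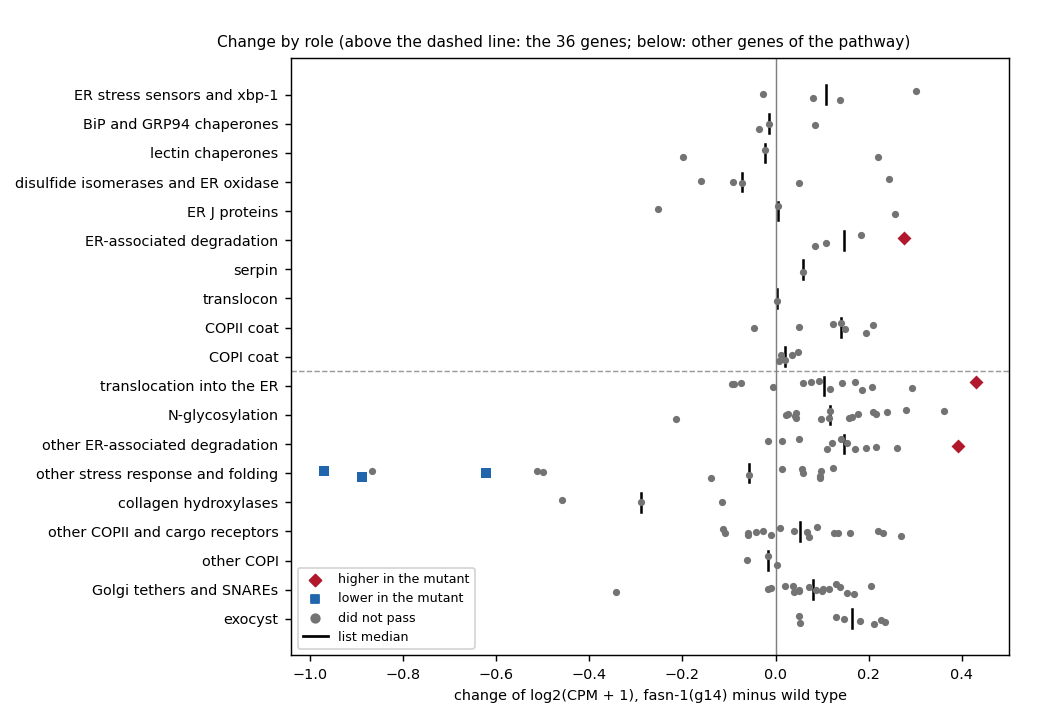
Change of log2(CPM + 1), fasn-1(g14) minus wild type, of each tested gene (horizontal axis) by list, with the 36 genes by role above the dashed line and other genes of the pathway below it; vertical bars are list medians, and red diamonds and blue squares mark genes higher and lower at an adjusted p below 0.05. Most points lie near 0, and the 3 that were lower are in the list of other stress response and folding genes.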

How the data were processed

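The samples were 4 RNA-seq libraries of whole animals, 2 of fasn-1(g14) and 2 of wild type, grouped by the labels. Per the labels' protocols, RNA was extracted with TRIzol and sequenced from NEBNext Ultra II libraries. The submitters' processing notes list HTSeq 0.12.4, edgeR 3.28.1 and Bowtie2 2.3.3.1, without their roles. The deposited signal values are CPM that the authors scaled with normalization factors, as the column sums show. Every value was a whole number of reads to within 0.001 read, so reads were recovered for the count tests, with 13960509 to 15889424 reads per library. A single read was worth 0.0628 to 0.0676 CPM, which limits precision for low genes only. Columns of 8 other libraries were not used.

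The test covered the 12977 of 13758 genes that reached 1 CPM in 2 or more libraries, and log2(CPM + 1) was tested with limma 3.58.1 with a trend (R 4.3.3), two-sided, with Benjamini-Hochberg adjustment over all genes and a threshold of 0.05. A fold change on this scale understates that of low genes. The biological replicates are separate samples by the design text, and it is not stated what they share, so p-values measure the spread between them. The design had assumed plain CPM, and the same test was kept. The alternatives were other pseudocounts, filters and scalings, a replicate block, edgeR 4.0.16, DESeq2 1.42.0, limma without a trend and leaving out each library.

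Names and positions came from the WBcel235 annotation, in which 13746 rows of the table matched 1 gene. The sources used here do not give the build of the authors' alignment. The text names the 36 genes, fasn-1 and, of each other pathway list, genes among the 4 with the smallest p-values; npp-20 was chosen after its values were seen. The genes and lists were chosen with earlier results of these data known.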

Additional observations from a re-analysis of the deposited data

How the results depend on the processing

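The count of the 36 ER and secretion genes higher in the mutant was 1 in the main test. It was 0 with a mean of at least 5 CPM, rescaled to the same total, centred on the median, with the replicate block, by edgeR and by limma without a trend, and 0 to 10 with 1 library left out; the count of those lower was 0, and 0 to 4 with 1 library left out. Of the 36, 6 had an unadjusted p below 0.05 by edgeR, 3 with the block and 0 without a trend. The range of any of the 36 changes over 15 alternatives was -0.43 to 0.45. Over all genes, 572 were higher, against 288 with a mean of at least 5 CPM, 359 rescaled, 1019 centred, 172 without a trend and 151 to 2346 with 1 library left out. Of all genes 1386 were lower, against 509 with a mean of at least 5 CPM, 913 by edgeR, 545 without a trend and 179 to 3268 with 1 library left out. Of the other pathway genes 2 were higher, against 1 with a pseudocount of 0.5 CPM, with a mean of at least 5 CPM, rescaled and by edgeR, 0 without a trend, and 0 to 32 with 1 library left out. Of them 3 were lower, against 1 with a mean of at least 5 CPM and by edgeR, 6 with the replicate block, 0 without a trend, and 0 to 9 with 1 library left out. The cause of these differences was not tested. Same-numbered libraries deviated with a correlation of -0.21. The labels tie the numbers to no shared batch, and what same-numbered libraries share is not stated. The replicate block gave 626 genes higher and 1872 lower. A crossed pairing, chosen after seeing the data, gave 6 higher and 1 lower of the 36, 8 and 6 of the other pathway genes, and 1197 and 2310 of all genes.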
